A study of Mus musculus with 8 samples.

Results

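The major urinary proteins (Mup) are a family of mouse genes measured here in liver. Of the 10 Mup genes listed for description (Mup1, Mup2, Mup3, Mup4, Mup5, Mup6, Mup7, Mup19, Mup20 and Mup21), 6 had a probe whose accession matched the RefSeq gene table. Those 6 genes (Mup2, Mup3, Mup4, Mup6, Mup20 and Mup21) were covered by 7 probes, among 46814 probes tested of 60273 on the array, and none was lost to the filter on dim probes. Mup1, Mup5, Mup7 and Mup19 had no matched probe and were not analysed here.

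Liver RNA of male mice was labelled with Cy3 and hybridised to 1-colour Agilent arrays, 8 in all on 1 slide. The NB group holds 4 arrays of genotype Ltg/NZO.5.3N/B (arrays NB 2, 3, 5 and 8), and the NN group holds 4 arrays of genotype Ltg/NZO.5.3N/N (arrays NN 1, 4, 6 and 7). These are recombinant congenic mice, labelled with the strain NZO/HiBomDife crossed with C57BL/6J, and the genotypes are described as differing in 5.3 Mbp of chromosome 18. NZO, the New Zealand Obese strain, is a polygenic model of obesity. Animals of both genotypes ate a diet with 45% fat until week 5, so diet, sex and age are shared by all 8 arrays. The labels do not say outright that each array holds another animal, so the p-values measure the spread between these arrays, which may be partly technical.

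Major urinary proteins are small lipocalins, barrel-shaped carriers that bind volatile pheromones. The mouse liver secretes them into the blood, from which they pass into urine and act as scent signals, and males make far more of them than females. Their transcription in liver depends on pulses of growth hormone acting through STAT5b, and on androgens, glucocorticoids and thyroid hormone, and it increases in males around puberty. The family is a cluster of closely related copies, so a probe for a given member can also bind transcripts of another.

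The RefSeq table held 22 genes named Mup, all on chromosome 4 (GRCm38.p6), from Mup4 at chr4:59956804-59960667 to Mup21 at chr4:62147832-62150841. No Mup gene therefore lies on the chromosome in which the genotypes are described as differing. Of the 22 genes, 8 had a matched probe, the 6 listed genes plus Mup11 and Mup16.

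The probe sequences show which of the Mup-related probes on the array share bases. They were not compared with the transcripts of the family, so no value is shown to belong to a single gene. They are given 5′ to 3′ as the scanner files hold them, and capitals mark runs of at least 16 bases that are identical to part of a different Mup-related probe on the array.
Mup2: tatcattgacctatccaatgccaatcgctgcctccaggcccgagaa
Mup3: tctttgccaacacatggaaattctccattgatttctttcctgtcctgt
Mup21: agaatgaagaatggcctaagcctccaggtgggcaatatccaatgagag
Mup4: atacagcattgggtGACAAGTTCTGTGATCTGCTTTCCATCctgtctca
Mup20 (NM_001012323): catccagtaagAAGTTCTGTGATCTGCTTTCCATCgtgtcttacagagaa
Mup20 (XM_006538045): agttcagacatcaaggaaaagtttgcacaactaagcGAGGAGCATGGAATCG
Mup6: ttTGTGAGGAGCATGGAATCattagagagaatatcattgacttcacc

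The probes of Mup2, Mup3 and Mup21 had no such run. Most Mup genes had no matched probe to compare with, so these values may also include signal of other copies. The Mup4 probe shared 24 consecutive bases with the NM_001012323 probe of Mup20, and 27 with the probe of XR_406189, a transcript that the gene table does not name. The Mup6 probe shared 18 bases with the probe of the unnamed transcript ENSMUST00000126217, and 15 with the XM_006538045 probe of Mup20. That Mup20 probe shared 16 bases with each of ENSMUST00000126217 and ENSMUST00000178292. The values of Mup4, Mup6 and both probes of Mup20 may thus include signal of other copies. How much each probe binds a paralog was not tested.

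All 7 probes stood well above background on all 8 arrays, and no spot on any array was saturated. The processed signal of the Mup2 probe lay between 228498 and 267252 intensity units on NB arrays and between 236654 and 257284 on NN arrays. On every array 4 of the 7 probes, of Mup2, Mup3, Mup4 and Mup21, were among the 42 to 52 probes with more than 50% of the highest signal. That highest signal was between 32.6% and 37.2% of the scanner's saturation value. Whether signal this bright still rises in proportion to the transcript was not tested, so small differences on these probes may be understated. Brightness depends on the probe's own sequence as well as on its transcript, so no order of transcript levels among the members is given.

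The comparison of NB with NN asks whether Mup signal in liver differs with the genotype of that chromosome 18 stretch. No difference was detected for the 7 probes: 0 were called at an adjusted p under 0.05 in limma, and 0 had an unadjusted p under 0.05. Over all probes tested, 4 of 46814 were called (0.00854%) and 813 had an unadjusted p under 0.05 (1.74%). For no Mup probe did the genotypes separate without overlap, against 1.15% of all probes, which is 539. The difference was positive for 3 probes and negative for 4, with a median log2 fold change of −0.03, beside −0.01 over all probes. The 95% confidence intervals were narrow. The widest among them reached 1.28-fold lower signal in NB, for Mup6, and 1.27-fold higher signal in NB, for a probe of Mup20. Levels below are log2 signal relative to the array's 75th percentile, all adjusted p-values (limma, Benjamini-Hochberg over all probes) were 1.00, and no direction is claimed for any member.

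**Figure D1:**
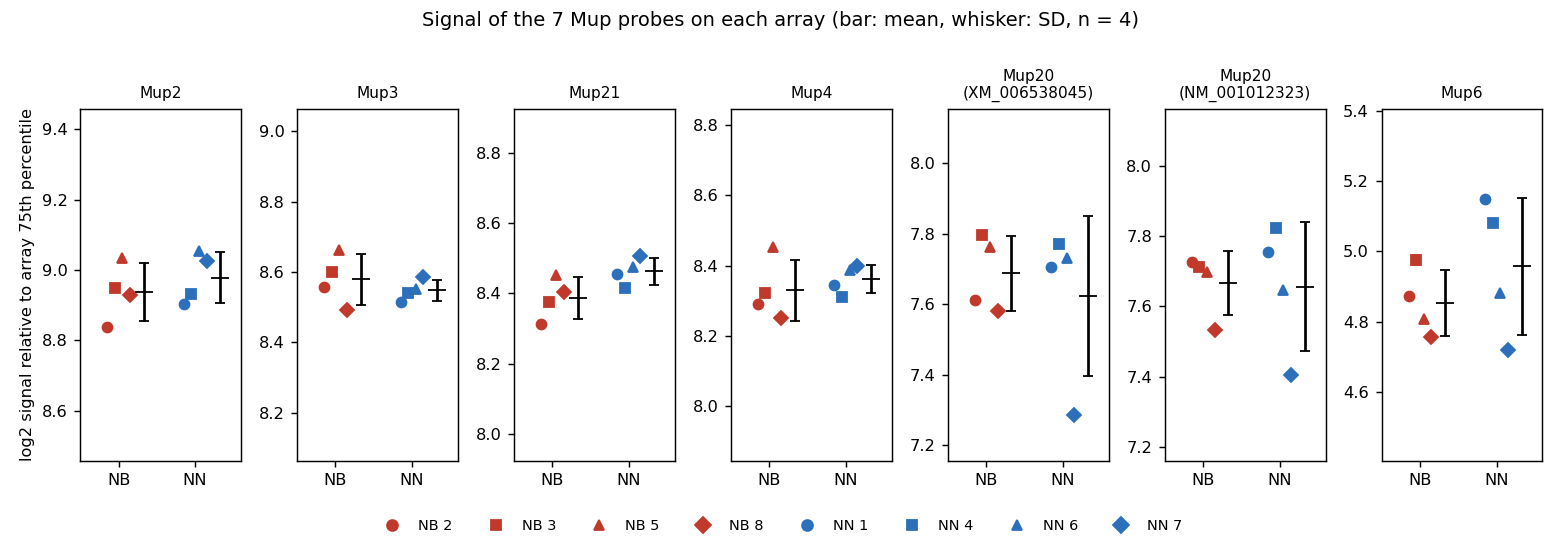
Signal of each of the 7 probes on each array, as log2 signal relative to the array's 75th percentile, with NB on the left and NN on the right of each panel. Points are arrays and bars with whiskers are means with SD (n = 4); each panel spans 1 log2 unit, and the genotypes overlap in all 7.

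Mup2 encodes a classical urinary protein made by liver. Its probe had log2 signals of 8.84, 8.95, 9.03 and 8.93 on NB arrays 2, 3, 5 and 8, against 8.90, 8.93, 9.05 and 9.03 on NN arrays 1, 4, 6 and 7. The lowest array was NB 2 and the highest NN 6, and the other arrays of the genotypes were interleaved. The means were 8.94 ± 0.08 in NB and 8.98 ± 0.07 in NN (SD, n = 4 each), a log2 fold change of −0.04 (SE 0.077), whose sign turned with quantile normalization, with the authors' value table and without scaling.

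Mup2 was printed in 5 spots on each array, which gives a measure of technical error that the other members lack. The SD between spots of an array ranged from 0.024 to 0.111 log2 units. The mean of an array's spots therefore had an SE of 0.012 to 0.049, and the SD of these unscaled means over the 8 arrays was 0.074.

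Mup3, another liver-expressed member, had log2 signals of 8.56, 8.60, 8.66 and 8.49 on NB arrays, against 8.52, 8.54, 8.55 and 8.59 on NN arrays (in the array order given for Mup2). Both the highest array, NB 5, and the lowest, NB 8, were NB, and the 4 NN values lay between them. The log2 fold change was 0.03 (SE 0.070, 95% confidence interval −0.13 to 0.19).

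Mup21 had log2 signals of 8.31, 8.38, 8.45 and 8.40 on NB arrays, against 8.45, 8.41, 8.48 and 8.51 on NN arrays. The highest NB array, NB 5, lay above the lowest NN array, NN 4, so this was the member closest to separation. The log2 fold change was −0.08 (SE 0.069, limma unadjusted p = 0.296). The slide held 1 NB and 1 NN array in each of its 4 columns. Within columns the NB minus NN difference of Mup21 ranged from −0.14 to −0.02, below 0 in 4 of 4. The share of all probes with the same sign in 4 of 4 columns was not computed. This count and later ones of its kind are therefore a description only. When NB 5 or NN 4 was left out, Mup21 was the 1 member whose genotypes did not overlap, as for 2.74% and 2.24% of all probes under the same omissions.

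Mup4 is known in mice mainly from nasal and lacrimal tissue. Its probe had log2 signals of 8.29, 8.32, 8.45 and 8.25 on NB arrays, against 8.35, 8.31, 8.39 and 8.40 on NN arrays. NB arrays were both the highest and the lowest. The log2 fold change was −0.03 (SE 0.074), and its sign turned without scaling. The probe's intensity lay between 142932 and 183144 on NB arrays and between 149121 and 174975 on NN arrays. Over an ungapped overlap of 35 bases, 34 matched the probe of XR_406189, which read 121725 to 147677 on NB arrays and 122079 to 147201 on NN arrays. Which transcript gave the signal was not tested.

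Mup20 encodes darcin, an atypical urinary protein that acts as a male sex pheromone in mice. Its XM_006538045 probe had log2 signals of 7.61, 7.80, 7.76 and 7.58 on NB arrays, against 7.71, 7.77, 7.73 and 7.28 on NN arrays. The NM_001012323 probe had 7.73, 7.71, 7.70 and 7.53 on NB arrays, against 7.75, 7.82, 7.65 and 7.40 on NN arrays. On both probes NN 7 was the lowest of the 8 arrays and NB 8 the next lowest. The log2 fold changes were 0.07 (SE 0.121) and 0.01 (SE 0.105), and without NN 7 they were −0.05 and −0.07.

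Mup6 had log2 signals of 4.87, 4.97, 4.81 and 4.76 on NB arrays, against 5.15, 5.08, 4.88 and 4.72 on NN arrays. NN arrays were the 2 highest and the lowest, and the log2 fold change was −0.10 (SE 0.109, 95% confidence interval −0.35 to 0.14). Its lowest and next lowest arrays were again NN 7 and NB 8. Without NN 7 its log2 fold change was −0.18, and it was not called there either.

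**Figure D2:**
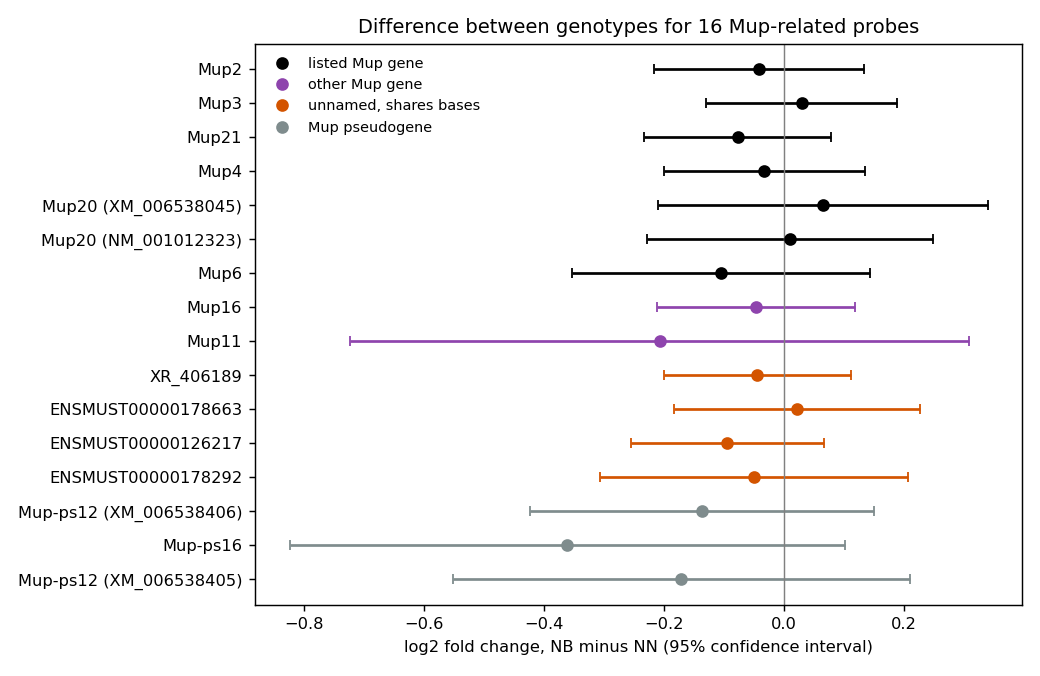
Log2 fold change, NB minus NN, with its 95% confidence interval from limma (n = 4 arrays per genotype) for the 7 probes of listed genes, 2 probes of other Mup genes, 4 unnamed probes that share at least 16 bases with a member's probe, and 3 Mup pseudogene probes. All 16 intervals include 0, and the intervals of Mup11 and the pseudogene Mup-ps16 are the widest.

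The other Mup-related probes gave the same count of calls, 0 of 9. Mup16 averaged 8.76 ± 0.08 in NB and 8.81 ± 0.05 in NN (SD, n = 4 each), a log2 fold change of −0.05 (SE 0.073). Mup11 averaged 2.16 ± 0.22 in NB and 2.36 ± 0.48 in NN, with array NN 4 at 3.08 above all others. The 4 unnamed probes had log2 fold changes between −0.09 and 0.02. The 3 pseudogene probes lay between −0.36 (SE 0.204, Mup-ps16, limma unadjusted p = 0.112) and −0.14. Mup-ps16 was lower in NB within 4 of 4 slide columns, by 0.14 to 0.81, as was the unnamed ENSMUST00000126217, by 0.03 to 0.23.

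Across arrays the probes did not all move together. On NN 7 the log2 signal of the 2 Mup20 probes was 0.45 and 0.34 below the mean of the other 3 NN arrays, which is 1.37-fold and 1.26-fold. Mup6 was 0.32 below that mean, and the unnamed ENSMUST00000178292 and ENSMUST00000178663 were 0.43 and 0.26 below it. On the same array Mup2, Mup3, Mup4, Mup21 and Mup16 were 0.05 to 0.07 above it. The array was singled out after these values were seen. NN 7 also had the lowest share of probes well above background, 74.4% against 75.7% to 79.6% on the other arrays, and its part in the pattern was not tested.

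**Figure D3:**
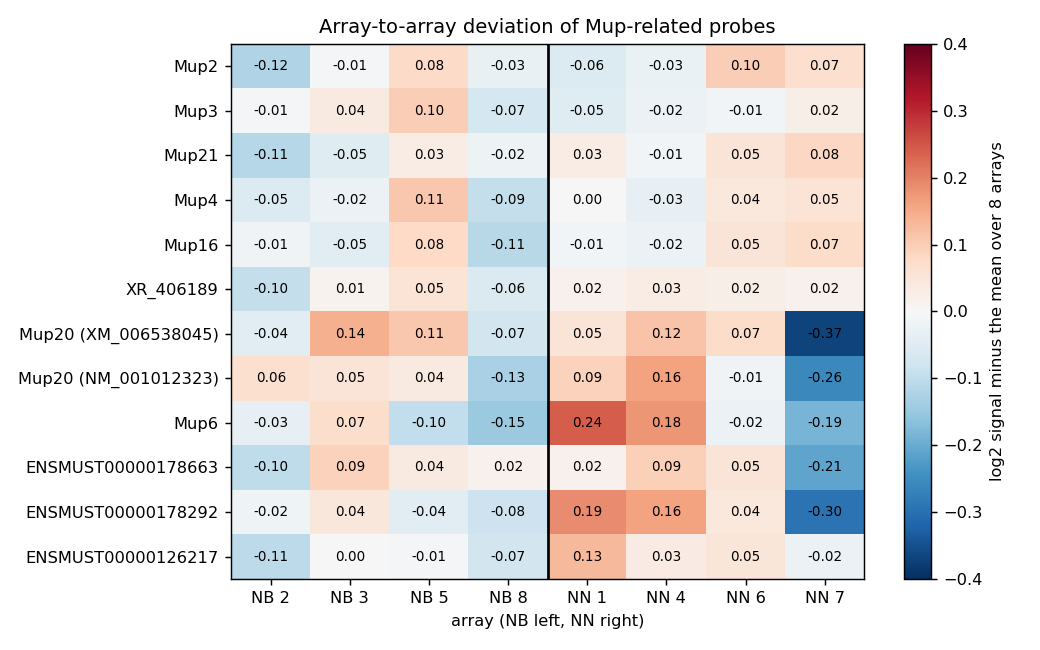
Log2 signal of 12 Mup-related probes on each array minus the probe's mean over the 8 arrays, with NB columns left of the line and NN columns right of it. NN 7 is low for Mup20, Mup6, ENSMUST00000178663 and ENSMUST00000178292, and above the mean for Mup2, Mup3, Mup21, Mup4 and Mup16.

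Pearson correlations over the 8 arrays were computed for all 21 pairs of the 7 probes, and ranged from −0.46 to 0.86. The highest was between the 2 probes of Mup20, which have no run of 16 bases in common (r = 0.86, exact permutation p = 0.013, Spearman's rho 0.57, exact permutation p = 0.15, two-sided). Without the 2 arrays farthest from the median of the XM_006538045 probe r was 0.07. Leaving out a probe's extremes tends to lower r, so this cannot decide whether the relation holds beyond those arrays. With the mean of each genotype removed r was 0.87. The next pairs were Mup20 (NM_001012323) with Mup6 (r = 0.81) and Mup2 with Mup21 (r = 0.80). The former had the highest Spearman's rho of the 21 pairs (0.86, unadjusted exact permutation p = 0.011). Without the 2 arrays farthest from the median of that Mup20 probe its r was 0.70. For Mup2 with Mup21 rho was 0.60, and r was 0.55 without the 2 arrays farthest from the Mup2 median. At an unadjusted exact permutation p under 0.05 there were 5 pairs, and after Benjamini-Hochberg adjustment over the 21 pairs there were 0, for Pearson's r and for Spearman's rho alike.

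Mup21, Mup3, Mup4 and Mup2 varied little between arrays of a genotype. The SD pooled within genotypes was 0.050 for Mup21, 0.055 for Mup3, 0.068 for Mup4 and 0.077 for Mup2, at the 1.31, 2.01, 4.87 and 7.95 percentiles of all probes tested. The Mup2 value is a mean of 4 or 5 spots per array, which lowers its SD, while the other members had 1 spot per probe. The SD of Mup6 and of the Mup20 probes lay between the 38.7 and 52.3 percentiles. Among the 2432 probes with a mean log2 signal of at least 4, the percentiles were 3.78, 5.35, 12.6 and 19.4 for Mup21, Mup3, Mup4 and Mup2, and 59.6 to 70.3 for Mup6 and Mup20. Scaling contributed unequally to this. Over the 8 arrays, the SD of Mup3 was 0.053 with scaling and 0.131 without it, while that of Mup2 was 0.075 with scaling and 0.074 without it. The log2 75th percentiles used for scaling had an SD of 0.120 over the same arrays. The 200 brightest probes had a median SD of 0.090 with scaling and 0.125 without.

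**Figure D4:**
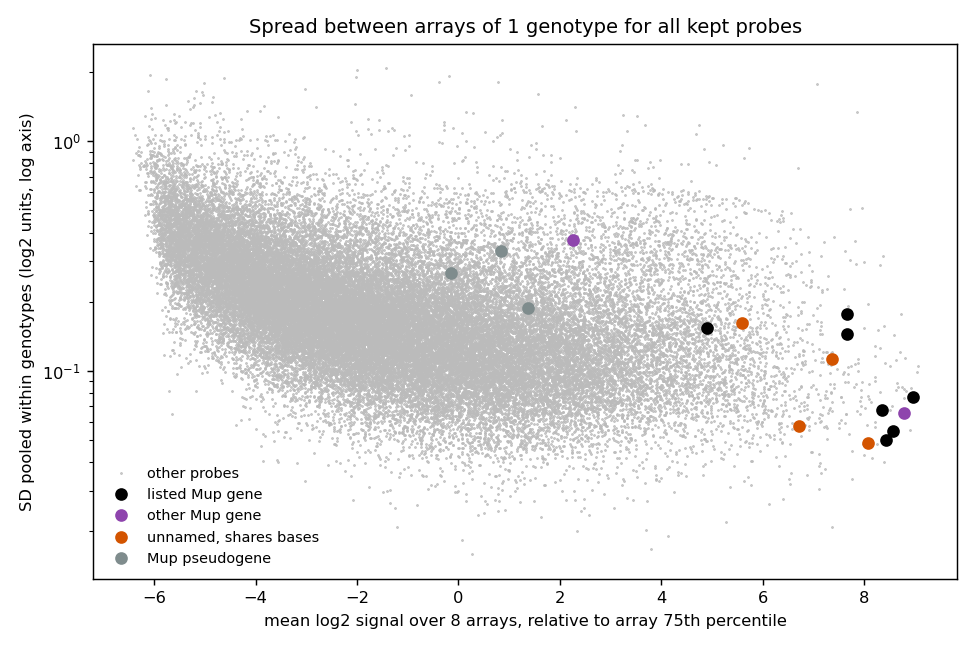
SD pooled within genotypes in log2 units (log axis) against mean log2 signal over 8 arrays, for all 46814 probes tested (grey) and the Mup-related probes (coloured). The probes of Mup2, Mup3, Mup4, Mup21 and Mup16 lie at the bright end with SDs of 0.050 to 0.077, below those of Mup20 and Mup6, at 0.145 to 0.178.

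The genes whose array profile was most like the mean of the 7 centred member probes were Nsun6 (Pearson r = 0.977), Gm10371 (0.965), Gm31201 (0.960), Gm31227 (0.949) and 6330407A03Rik (0.941). These are the 5 highest of 23625 genes over 8 arrays and are a description only. The mean profile itself was −0.04, 0.03, 0.05 and −0.08 on NB arrays, against 0.05, 0.05, 0.03 and −0.08 on NN arrays. NB 8 and NN 7, its 2 lowest arrays, lay in the same column of the slide.

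The pathway that drives Mup transcription was read from lists of genes, with the brightest probe of each gene. Over all 23914 named genes 0.00836% were called and 1.07% separated without overlap, with a median log2 fold change of −0.01. For growth hormone and STAT5 signalling, 12 of 13 genes were measured and 0 were called, 6 with positive and 6 with negative differences, at a median of −0.03. Igf1, the growth factor that liver secretes under growth hormone, averaged 5.66 ± 0.08 in NB and 5.81 ± 0.12 in NN (log2 fold change −0.14, SE 0.085). Igfbp1, an IGF binding protein, differed by −0.49 with an SE of 0.503. The receptor Ghr differed by −0.08 (SE 0.114) and the transcription factor Stat5b by −0.07 (SE 0.117). The genotypes overlapped for every measured gene of this list.

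Among transcription factors and other regulators of Mup genes, 17 of 18 were measured and 0 were called, 12 positive and 5 negative, at a median of 0.03. The smallest p-values were those of Zfp456, a zinc finger gene (0.27, SE 0.148), and Onecut1, which encodes the hepatocyte factor HNF6 (0.19, SE 0.217). Nr3c1, which encodes the glucocorticoid receptor, differed by 0.06 (SE 0.124).

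Mup genes belong to the male-biased genes of mouse liver. Of 17 other male-biased genes 16 were measured and 0 were called, 8 in each direction, at a median of −0.01. Moxd1, a monooxygenase-like gene, had the smallest p-value, on a dim probe (−4.07 ± 0.47 in NB and −5.27 ± 0.85 in NN, SD, n = 4 each; log2 fold change 1.20, limma unadjusted p = 0.017). Susd4, a complement regulator, differed by 0.63 with an SE of 0.338. Hsd3b5, a male-specific steroid enzyme, differed by 0.06 (SE 0.095).

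Of 24 female-biased genes 19 were measured and 0 were called, 5 positive and 14 negative, at a median of −0.12. Cyp3a16 (−0.38, SE 0.129, limma unadjusted p = 0.017) and Cyp3a44 (−0.42, SE 0.150, unadjusted p = 0.021) are related cytochrome P450 genes whose probes may share signal, which was not tested. Both were lower in NB within 4 of 4 slide columns, but neither separated without overlap and both adjusted p-values were 1.00. Hao2 (−0.83, SE 0.484), A1bg (−1.02, SE 0.656) and Cyp2c69 (−0.16, SE 0.122) were also lower in NB within 4 of 4 columns. The remaining measured genes of the list had mixed signs over the columns. Genes of other lists also kept the same sign in 4 of 4 columns. Among them Moxd1, Susd4, Alb, Orm1, Clec4f and Adgre1 were above 0, and Igf1 and Amy2b were below 0.

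Other lipocalins, relatives of the Mup proteins with other cargoes, were measured for 10 of 12 genes, with 0 called, 7 positive and 3 negative, at a median of 0.07. Lcn2, an iron-scavenging acute-phase protein, differed by 0.79 (SE 0.408), and Orm1, an acute-phase plasma carrier, by 0.44 (SE 0.247). Orm1 read 5.89, 6.81, 6.68 and 6.68 on NB arrays, against 5.80, 5.72, 6.24 and 6.56 on NN arrays. Its SD was 0.42 in NB and 0.40 in NN, while the SD of the 7 Mup probes within either genotype was at most 0.227.

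Cell type markers gave the tissue's identity. All 9 hepatocyte markers were measured, with mean log2 signals per array of 6.04 to 6.26 in NB and 6.13 to 6.19 in NN, and 0 were called. Cps1, a urea cycle enzyme, had the smallest p-value of these (−0.30, SE 0.127, limma unadjusted p = 0.043), and Alb, albumin, differed by 0.18 (SE 0.093). All 6 Kupffer cell markers were measured, at 1.20 to 1.68 in NB and 1.03 to 1.59 in NN, 5 positive and 1 negative, with Clec4f at 0.18 (SE 0.091) and Adgre1 at 0.22 (SE 0.113). Endothelial, stellate, cholangiocyte, acinar and adipocyte markers had 0 calls among 5, 5, 4, 5 and 3 genes measured. In the acinar list Amy2b, an amylase gene, was the 1 gene of the 12 lists whose genotypes did not overlap, at 1.76 ± 0.06 in NB and 1.96 ± 0.06 in NN (log2 fold change −0.20, limma unadjusted p = 0.020). Over all named genes 1.07% did not overlap, so a single such gene in these lists is not read as a result. In bulk tissue, fewer cells of a type and less RNA per cell cannot be told apart.

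Promoter windows, 250 bases before to 50 after the gene start, were in the RefSeq table (GRCm38.p6) for 7 of the 10 listed genes (Mup2, Mup3, Mup4, Mup6, Mup7, Mup19 and Mup21). Windows follow the start that the promoter table uses, which for Mup2 and Mup19 lies 121 and 131 bases inside the gene as the gene table gives it. Both strands were searched. The STAT5 motif TTCNNNGAA was in 0 of the 7 and in 8.47% of all 27025 windows, and the C/EBP motif TTGCNNAA in 0 of the 7 and in 10.8% of all. TGTTCT, a part of the glucocorticoid receptor element, was in the windows of Mup3 and Mup21, at offsets of −204 and −198 bases from the start, and in 19.0% of all windows. TATAAA was in the windows of Mup4 and Mup6, in each at an offset of −27 bases, and in 14.2% of all. These are matches of letters in short windows and describe no binding.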

How the data were processed

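The authors' scanner software was Agilent Feature Extraction, version 11.5.1.1 per the file headers and 9.1 per the submitters' processing notes. Each deposited intensity had already been background-subtracted by it, per the file headers. The authors' deposited value table, whose processing and scale are not given in the sources used here, followed it closely (Pearson r at least 0.998 on each array, across probes, which are not independent replicates) and served as an alternative.

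From the deposited intensity, log2 signal minus each array's 75th percentile (445 to 584 intensity units) was computed. Control spots and spots marked as outliers (248 to 621 per array) were left out, and spots of a probe were averaged. Probes were kept when well above background on at least 4 of 8 arrays with at least 2 values per genotype. Between 74.4% and 79.6% of probes were well above background per array, and the number of arrays limits the precision. NB was set against NN, probe by probe and two-sided, by a linear model with moderated variances (limma 3.58.1, R 4.3.3; Benjamini-Hochberg over 46814 probes, threshold 0.05). Of these steps only the linear model was tested on simulated data, which were built from signal already scaled and filtered. The gene table of GRCm38.p6 gave names, chromosomes and positions, by accession without version, for 31064 probes; probe sequences come from the files and promoter windows from RefSeq.

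The members and gene lists were chosen with earlier results of these data known, so no list was tested. Named are every Mup probe, in each related list any called gene and otherwise the 2 with the smallest p-values, and the 5 genes most alike in profile. Ghr, Stat5b, Nr3c1 and Hsd3b5 were added for their role after values were seen. Hao2, A1bg, Cyp2c69, Cish, Orm3 and Marco were added for their values on the arrays or within slide columns, after these were seen. The alternatives were other scalings, background correction, filters, probe summaries, the authors' value table, array weights, a trended and robust fit, slide row or column as a block, an adjusted p under 0.1 and each array left out.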

Additional observations from a re-analysis of the deposited data

Results flagged for a closer look

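In each genotype, the values of 16 Mup-related probes, the member mean and 12 gene lists were screened for an array far from the other 3 (Dixon's test, critical value 0.829 for 4 arrays). Of 58 sets, 5 had such an array, where chance gives about 5%.

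Mup20 was low on NN 7 on its XM_006538045 probe, at 7.28 against 7.71 to 7.77 on the other NN arrays. Its NM_001012323 probe was low on NB 8, at 7.53 against 7.70 to 7.73 on the other NB arrays. The mean of the 7 centred member probes was low on NN 7, at −0.0840 against 0.0309 to 0.0508 on the other NN arrays, and shares its data with the Mup20 and Mup6 values. Mup11 was high on NN 4, at 3.08 against 2.08 to 2.20 on the other NN arrays. The mean log2 signal of stellate cell markers was low on NB 2, at 1.58, with at least 1.68 on the other NB arrays.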

How the results depend on the processing

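Under 22 alternatives, 0 of the 7 probes of listed Mup genes were called, and between 3 and 5 probes were called over the whole array. The median log2 fold change of the member probes ranged from −0.07 to 0.02 (−0.07 to −0.01 when each array in turn was left out, where 3 to 4 probes were called over the array). The number of member probes whose genotypes did not overlap was 0 to 1 when each array in turn was left out: it was 1, Mup21, without NB 5 and without NN 4. The log2 fold change of Mup2 was 0.020 with quantile normalization, 0.014 with the authors' value table and 0.0086 without scaling, and that of Mup4 was 0.017 without scaling; the setting without scaling was chosen after seeing the data and moved the median of all probes to 0.04. When each array in turn was left out, the log2 fold change of Mup20 ranged from −0.048 to 0.114 on its XM_006538045 probe, below 0 only without NN 7. On its NM_001012323 probe it ranged from −0.074 to 0.065, below 0 without NB 2, NB 3 or NN 7. The cause of these sign changes was not tested. The XM_006538045 probe gives no value of its own in the 2 alternatives that use 1 value per gene. Mup3 kept a positive sign, and Mup21 and Mup6 a negative one, in all alternatives that gave them a value. No paired analysis by replicate number was possible because the label numbers run from 1 to 8 through both genotypes and none is shared. With the slide column as a block, each column holding 1 NB and 1 NN array, 4 probes were called over the array and 0 member probes.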

Other observations

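Cish, a feedback inhibitor that growth hormone induces through STAT5, varied widely between arrays, at 3.35, 0.63, 2.34 and 3.12 on NB arrays 2, 3, 5 and 8, against 2.79, 0.09, 2.00 and 2.69 on NN arrays 1, 4, 6 and 7 (log2 signal relative to the array's 75th percentile). The lowest value of each genotype, on NB 3 and NN 4, came from the same column of the slide. Within the 4 columns the NB minus NN difference was 0.56, 0.53, 0.34 and 0.43, above 0 in 4 of 4, while the log2 fold change without regard to columns was 0.47 with an SE of 0.730 (limma, adjusted p = 1.00). In the same list, growth hormone and STAT5 signalling, Igf1 went the other way in 4 of 4 columns, at −0.205, −0.204, −0.156 and −0.001. The other genes measured in that list had mixed signs. Cish was picked out after its values were seen, and whether the arrays of a column were processed together is not given in the sources used here. The share of all probes with the same sign in 4 of 4 columns was not computed.

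Orm1, Orm3 and Marco, acute-phase carriers and a macrophage receptor, were low on the same arrays of both genotypes. Orm3 read 6.35 on NB 2 and 7.11 to 7.23 on the other NB arrays, against 6.23 and 6.14 on NN 1 and NN 4 and 6.68 and 7.05 on NN 6 and NN 7. Marco read 0.10 on NB 2 and 0.96 to 1.79 on the other NB arrays, against −0.67 and −0.62 on NN 1 and NN 4 and 1.61 and 1.56 on NN 6 and NN 7. Orm1 and Orm3 are close copies whose probes may share signal. The Mup2 probe spanned 0.22 log2 units over the same 8 arrays. The other probes of listed Mup genes spanned from 0.17 (Mup3) to 0.51 (Mup20, XM_006538045 probe).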
